A study of Rattus norvegicus with 12 samples.

Results

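Gene expression in the lumbar spinal cord of rats 3 days after spinal cord injury (SCI) was compared with that of sham rats across all expressed genes. The samples compared were all 3 libraries labelled SCI, Day3, and all 3 labelled sham, Day0, which are 6 of the 12 libraries of the study. The other 6 come from days 7 and 14 after SCI and entered the model only to share its estimate of the spread. Of 23526 genes in the table, 18714 had enough counts to be tested. All samples were whole pieces of lumbar cord, segments L3 to L5 per the title of the study, from animals with no stated genetic change. The labels give neither strain, age and sex nor the level and kind of the injury, and the sham samples carry the label Day0, so time since surgery was not matched. Whether the 3 samples of a group were 3 animals is not in the labels, and the p-values below reflect no more than the spread among these libraries, which may be technical. In tissue of mixed cells, fewer cells of a type and less RNA per cell cannot be told apart.

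After an injury to the cord, segments away from the lesion receive debris of cut axons, signals from blood and immune cells, and altered input to their circuits. Microglia and astrocytes there take up a reactive state, in which cytokine signals of the interleukin-6 family act through STAT3 and damage signals act through Toll-like receptors and NF-kB. Reactive and dividing cells also raise immediate early transcription factors, ribosome production and the actin machinery of motility, and neurons can lower transcripts of their mature functions. The genes below are grouped by these roles, and the labels do not say whether the samples here lay away from the lesion.

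Values are given as counts per 1000000 (CPM, scaled by TMM factors), and 3 values in a row stand for replicates 1, 2 and 3 in that order. List levels are medians over the members of the log2 difference from the sham mean. A gene is said to have risen or fallen where edgeR's quasi-likelihood test gave a Benjamini-Hochberg adjusted p under 0.05 over all genes tested, and the SE restates that test. Where a gene rose or fell by a value, that value is its log2 fold change. Library totals, in units of 1000000 counts, ran from 64.6 to 65.2 in sham and from 74.2 to 79.1 at SCI day 3.

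The 3 SCI day 3 libraries were not alike. The median gene differed between SCI day 3 replicate 2 and the sham libraries by 0.24 to 0.37 on the log2 scale, close to the 0.20 to 0.30 between sham libraries, while replicates 1 and 3 differed from sham by 0.65 to 0.84. Sham replicate 2 was closer to SCI day 3 replicate 2, at 0.244, than to sham replicates 1 and 3, at 0.301 and 0.295. The markers of mature neurons summed to 10822 to 14770 CPM in sham, 11680 CPM in SCI day 3 replicate 2, and 1389 and 916 CPM in replicates 1 and 3. Motor neuron markers showed the same order as a sum, with 645 to 769 CPM in sham and 154, 730 and 138 CPM at SCI day 3. In replicate 2 this sum joined opposite differences, with 5 of 11 tested members above every sham library and 5 below. No marker of either list was at 0 in all 6 libraries, so the cord label is met in sham, and in replicates 1 and 3 those markers were low. Mitochondrially encoded transcripts took 8.004% to 9.80% of counts in sham and 5.62%, 10.2% and 5.43% at SCI day 3. Schwann cell markers, which belong to nerve roots, summed to 6374, 48578 and 7772 CPM in sham and 14455, 31710 and 59517 CPM at SCI day 3, so sham replicate 2 stood apart from the other sham libraries. Neutrophil markers, at 116 CPM in sham replicate 2 against 8.26 and 5.67 CPM in the other sham libraries, set the same library apart. At SCI day 3 they summed to 97.0, 120 and 59.3 CPM. Sensory ganglion neuron markers summed to 43.3 to 72.4 CPM in sham and 23.4, 203 and 20.2 CPM at SCI day 3, and in replicate 2 they lay above every sham library in 10 of 11 tested members. The part of these differences in the results below was not tested, and each main result is given library by library.

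Between SCI day 3 and sham 1254 genes changed, 6.70% of those tested, with 1030 higher (5.50%) and 224 lower (1.20%). The median log2 fold change over all genes was 0.03. Higher genes differed by a median of 1.35 on the log2 scale and lower genes by -1.27. Among the higher genes 743 changed by more than 2-fold and 124 by more than 8-fold, against 152 and 17 of the lower ones. These folds are fitted values, and 15 of the higher genes had no count in any sham library and 9 of the lower genes none in any SCI day 3 library. Calls were rare among weakly expressed genes: in 5 groups of equal size by mean level, from the lowest up, 0.989%, 4.86%, 7.64%, 9.67% and 10.3% of genes were called. In the highest group, above 60.02 CPM, 312 genes rose and 75 fell. Protein-coding genes gave 992 higher and 210 lower calls of 16885 tested (7.12%), and long noncoding RNAs gave 32 and 12 of 1364 (3.23%). Of 157 small nucleolar RNAs 1 rose.

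**Figure D1:**
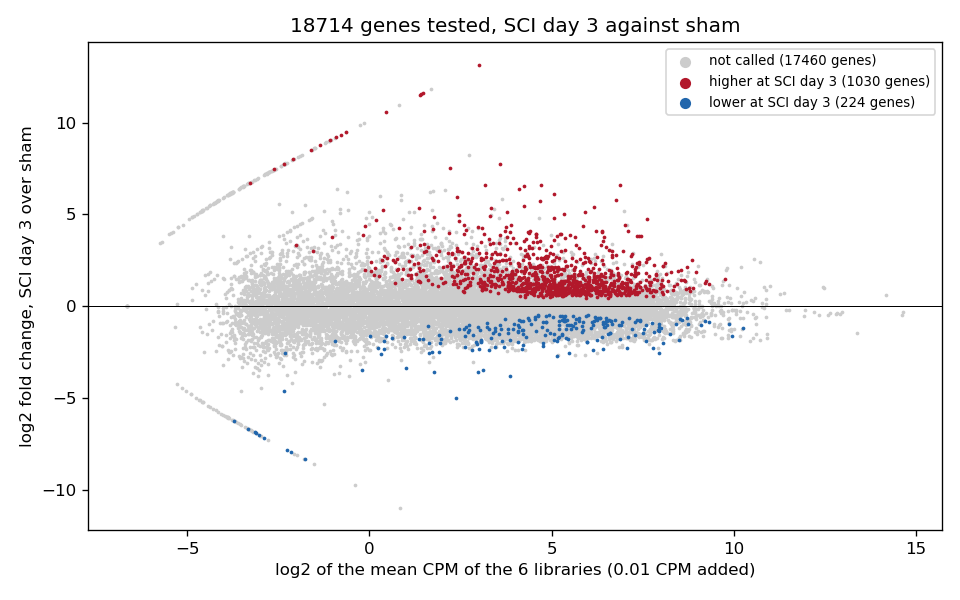
Fitted log2 fold change of SCI day 3 over sham (vertical axis) against the log2 mean CPM of the 6 libraries (horizontal axis) for the 18714 genes tested. Red points are the 1030 genes that rose, blue points the 224 that fell and grey points the rest; the 2 diagonal lines of points are genes with no count in 1 of the groups, whose fitted fold depends on the prior count.

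SCI day 3 replicate 2, the library nearest to sham, still took part in the called changes, at a smaller size. In the 1030 higher genes the median log2 difference from the sham mean was 1.58, 0.73 and 1.56, and in the 224 lower genes it was -1.49, -0.84 and -1.60. Replicate 2 lay above every sham library in 1027 of the higher genes and below every sham library in all 224 of the lower ones, a pattern that the test itself favours. Per gene, its difference was 48.2% of the mean of replicates 1 and 3 in the median higher gene (quartiles 37.4% and 59.6%) and 57.7% in the median lower gene (quartiles 42.6% and 74.9%). Over all genes tested the spread within SCI day 3, as the median range of the 3 libraries, was 0.91 on the log2 scale, against 0.45 in sham. In 107 of the higher genes and 71 of the lower ones the 3 SCI day 3 libraries lay within 0.5 of each other. These are 10.4% and 31.7%, against 25.7% of all genes tested.

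Almost all calls lay near the limit, with 1238 of the 1254 at an adjusted p over 0.03, and 6597 genes had an unadjusted p under 0.05. The calls therefore moved with single libraries. Leaving out sham replicate 1 or 3, SCI day 3 replicate 1 or 3, SCI day 7 replicate 2 or SCI day 14 replicate 3, here the 6 deciding libraries, left 6, 1, 8, 10, 13 and 18 genes. In these 6 fits 4187 to 6255 genes still had an unadjusted p under 0.05. The low counts given below for single lists without a deciding library follow from these totals and are no separate result. Without SCI day 3 replicate 2 there were 7087, and without any other single library between 524 and 749. A fit of the 6 compared libraries alone called 1 gene, a different one from that of the next fit. In the fit that set SCI day 3 replicate 2 alone against sham, with the spread taken from the other groups, 1 gene rose, Tmem158.

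Tmem158 (ENSRNOG00000004757), a membrane protein first described as induced by Ras signalling, measured 1.296, 1.34 and 1.34 CPM in sham and 10.6, 10.7 and 9.503 CPM at SCI day 3. The groups were far apart and the 3 SCI day 3 libraries, replicate 2 included, were nearly level. It rose by 2.95 ± 0.22 in log2 units (SE, n = 3 per group; edgeR adjusted p = 0.00115). It was called in 20 of 21 alternative fits, the exception being the fit of the 6 libraries alone (edgeR adjusted p = 0.0578). Cebpb, Fosb, Ccdc71l and Aldh1l1 were called in 18 of 21, and 285 genes in at least 12. The 3 fits that lost each of these 4 were that of the 6 libraries alone, that without sham replicate 3 and that of SCI day 3 replicate 2 alone, in which their edgeR adjusted p ranged from 0.0506 to 0.224.

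The genes with the widest gap between groups came next, taken as the distance from the highest sham library to the lowest SCI day 3 library among genes that rose. Cyp1a1, an enzyme of foreign compound metabolism that the aryl hydrocarbon receptor induces, had no count in sham and 217, 234 and 780 counts at SCI day 3. Its mean was at least 352-fold higher than a floor of 3 counts taken over all sham libraries (edgeR adjusted p = 0.0263). Kng1, the kininogen precursor of bradykinin, had no count in sham and 140, 181 and 846 counts, at least 337-fold higher (edgeR adjusted p = 0.0492), and close paralogs in the rat may share its reads. The chemokine Ccl3, which draws in monocytes and other leukocytes, had none in sham and 239, 71 and 843 counts, at least 331-fold higher (edgeR adjusted p = 0.040998). In all of these, SCI day 3 replicate 3 was the highest library and replicates 1 and 2 were closer to each other. Another gene absent from sham, Il11, a cytokine of the interleukin-6 family, had the highest fitted fold of all genes and was picked after its values were seen. It had 1114, 9 and 2483 counts at SCI day 3, so replicate 2 stood near sham (edgeR adjusted p = 0.0483).

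Cebpb, a transcription factor of the acute phase response, measured 0.356, 0.553 and 0.687 CPM in sham and 58.6, 23.3 and 74.5 CPM at SCI day 3. All SCI day 3 libraries were over 20 times as high as every sham library, with replicate 2 the lowest, and Cebpb rose by 6.61 ± 0.65 in log2 units (SE, n = 3 per group; edgeR adjusted p = 0.00534). Fosb, an immediate early partner in AP-1, measured 0.923, 2.505 and 1.61 CPM in sham and 24.5, 30.1 and 27.6 CPM at SCI day 3. Here replicate 2 was the highest of the 3, and Fosb rose by 4.03 ± 0.42 in log2 units (SE, n = 3 per group; edgeR adjusted p = 0.00534). Ccdc71l, whose product is little described, measured 0.4698, 0.507 and 0.484 CPM in sham and 5.85, 4.76 and 4.88 CPM at SCI day 3. Within each group its libraries were nearly equal, and it rose by 3.40 ± 0.33 in log2 units (SE, n = 3 per group; edgeR adjusted p = 0.00534).

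The other wide gaps belonged to genes of cytokine response, protease signalling and matrix. Tnfaip6, a hyaluronan-binding protein induced by inflammation, measured 5.35, 2.32 and 2.28 CPM in sham and 100.3, 114 and 202 CPM at SCI day 3, with replicate 2 between the other SCI day 3 libraries. Socs3, the feedback inhibitor of STAT3 signalling, measured 3.21, 5.44 and 3.23 CPM in sham and 192, 95.97 and 359 CPM at SCI day 3. Its replicate 2 was the lowest SCI day 3 library and yet more than 10-fold above the sham libraries. F2rl1, a receptor cleaved by trypsin-like proteases, measured 0.389, 0.615 and 0.24997 CPM in sham and 12.03, 6.67 and 12.99 CPM at SCI day 3. Csf2rb, the shared receptor chain for interleukin-3, interleukin-5 and GM-CSF, measured 3.17, 4.29 and 2.66 CPM in sham and 161, 42.7 and 146 CPM at SCI day 3. Maff, a small MAF factor without a transactivation domain, measured 2.203, 2.69 and 2.297 CPM in sham and 119.5, 23.9 and 93.4 CPM at SCI day 3. The groups overlapped in none of the 5, which rose by 4.65 (F2rl1) to 5.76 (Socs3) in log2 units (edgeR adjusted p from 0.0294 to 0.0324). Of the 11 genes named for a wide gap, none was called without sham replicate 3, and Cebpb, Fosb and Ccdc71l were without sham replicate 1 or SCI day 3 replicate 1. Of the 21 alternative fits Cyp1a1 was called in 16, F2rl1 and Maff in 13, Tnfaip6, Socs3 and Csf2rb in 12, Ccl3 in 7 and Kng1 in 6.

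**Figure D2:**
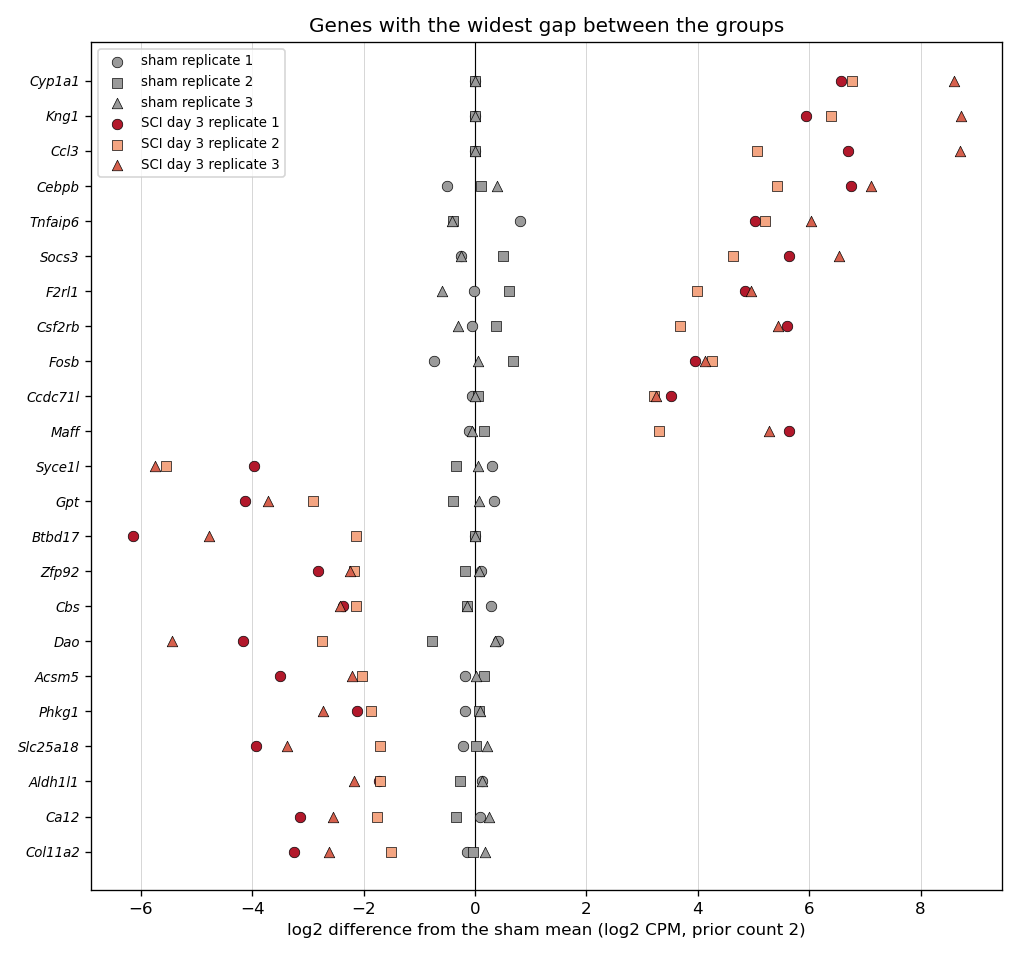
Log2 difference from the sham mean of each library (horizontal axis; log2 CPM with a prior count of 2) for 11 genes that rose and 12 that fell with the widest gap between the groups. Grey symbols are the 3 sham libraries and coloured symbols the 3 SCI day 3 libraries, and in each of these genes replicate 2 (light squares) lies on the same side of sham as replicates 1 and 3.

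Because immediate early and stress genes were prominent among these genes, the 250 bases before the start of each gene were searched for the sites of their usual regulators, on both strands. RefSeq promoters of build GRCr8 were matched by symbol for 12215 of 18578 tested symbols, 755 of genes that rose and 155 of genes that fell. The site bound by AP-1 (TGANTCA) was in 5.56% of the promoters of higher genes, 3.87% of lower, 4.67% of tested genes and 6.36% of all 27457 promoters in the table. The cAMP response element (TGACGTCA) was in 3.05%, 2.58%, 2.66% and 1.70% of the same sets, and the CArG box bound by serum response factor in 2.52%, 1.29%, 1.19% and 1.501%. For the C/EBP site (TTGCNNAA) the shares were 8.48%, 9.03%, 7.94% and 9.20%, and for the NF-kB site 0.530%, 0 of 155 promoters, 0.467% and 0.317%. These are descriptions of letters, without a test, and a match is not a bound site. The promoters below show 4 genes that rose and hold such matches, chosen after the matches were seen, and that of Tmem158, in which none of the 5 motifs was found. Capitals mark the matches: 2 adjoining CArG boxes in Dusp5, starting 82 and 72 bases before the gene start, 1 cAMP response element in Maff (51 bases) and in Ier2 (66 bases), and a C/EBP site (171 bases) followed by an AP-1 site (71 bases) in Mmp3. The positions in GRCr8 are chr1:262543524-262543773 for Dusp5, chr7:112792537-112792786 for Maff, chr19:40399123-40399372 for Ier2 and chr8:12925031-12925280 for Mmp3, all on the plus strand, and chr8:131792136-131792385 for Tmem158 on the minus strand. Each is written 5′ to 3′ along its gene.
Dusp5: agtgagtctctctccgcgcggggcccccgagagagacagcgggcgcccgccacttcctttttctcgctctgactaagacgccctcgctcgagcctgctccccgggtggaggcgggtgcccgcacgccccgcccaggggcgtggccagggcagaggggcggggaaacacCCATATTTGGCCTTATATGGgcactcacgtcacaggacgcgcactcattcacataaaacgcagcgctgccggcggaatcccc
Maff: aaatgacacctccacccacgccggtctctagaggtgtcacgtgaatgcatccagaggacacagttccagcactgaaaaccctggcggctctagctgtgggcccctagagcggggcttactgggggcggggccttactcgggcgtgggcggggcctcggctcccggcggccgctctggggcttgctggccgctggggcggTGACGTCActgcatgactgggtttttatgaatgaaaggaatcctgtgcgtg
Ier2: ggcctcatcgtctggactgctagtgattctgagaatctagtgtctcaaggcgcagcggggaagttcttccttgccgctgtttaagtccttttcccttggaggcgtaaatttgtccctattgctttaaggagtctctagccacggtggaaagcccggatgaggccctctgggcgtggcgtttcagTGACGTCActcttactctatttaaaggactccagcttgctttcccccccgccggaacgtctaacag
Mmp3: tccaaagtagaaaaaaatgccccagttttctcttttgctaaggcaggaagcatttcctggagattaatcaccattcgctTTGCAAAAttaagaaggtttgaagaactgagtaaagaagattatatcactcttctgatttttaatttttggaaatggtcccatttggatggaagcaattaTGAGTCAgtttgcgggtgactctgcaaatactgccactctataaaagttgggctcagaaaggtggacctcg
Tmem158: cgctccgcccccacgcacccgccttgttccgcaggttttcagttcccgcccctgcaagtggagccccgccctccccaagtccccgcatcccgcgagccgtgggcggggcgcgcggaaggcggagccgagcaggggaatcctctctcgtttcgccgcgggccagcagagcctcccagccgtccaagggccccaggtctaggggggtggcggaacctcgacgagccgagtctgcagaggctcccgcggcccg

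Transcription factors of stress and injury gave the highest share of calls of the signalling lists. Of 29 members tested 19 rose, against 5.50% of all genes, and the median log2 fold change was 1.93. All 29 had a positive fold change, and in 26 the groups did not overlap, which held for 19.0% of all genes in this direction. The list stood at 2.11, 0.92 and 1.89 log2 units at SCI day 3, within 0.17 of the mean in sham. Myc, which drives growth and ribosome production, measured 4.21, 5.27 and 4.09 CPM in sham and 81.96, 26.3 and 102 CPM at SCI day 3. Jund, the AP-1 subunit of resting cells, measured 67.2, 63.9 and 66.9 CPM in sham and 113, 119 and 123 CPM at SCI day 3, and rose by 0.84 ± 0.13 in log2 units (SE, n = 3 per group; edgeR adjusted p = 0.0324). The small rise of Jund came with nearly level SCI day 3 libraries, whereas Myc, which rose by 3.95, was lowest in replicate 2. Cebpb and Maff, described above, are the other members among the 4 of smallest p. Without a deciding library 0 to 2 members stayed called, and without any other single library 7 (sham replicate 2) to 26 (SCI day 3 replicate 2).

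Feedback inhibitors of the MAP kinase pathway rose in 10 of 21 members (5.50% of all genes did), with a median of 1.46 and levels of 1.92, 0.51 and 1.44. Dusp5, a nuclear phosphatase that acts on ERK, measured 1.77, 1.89 and 1.91 CPM in sham and 15.8, 7.197 and 19.1 CPM at SCI day 3, and rose by 2.92 ± 0.37 in log2 units (SE, n = 3 per group; edgeR adjusted p = 0.0177). Its sham libraries were within 0.2 CPM of each other and every SCI day 3 library lay above them. The immediate early gene Ier2 measured 10.6, 19.8 and 15.9 CPM in sham and 72.1, 46.1 and 94.8 CPM at SCI day 3. Dusp6, the cytoplasmic phosphatase of ERK, measured 16.4, 17.2 and 14.9 CPM in sham and 109.7, 31.2 and 89.3 CPM at SCI day 3, and Spry1, an inhibitor of receptor tyrosine kinase signalling, 8.94, 16.6 and 9.19 CPM in sham and 66.7, 31.4 and 55.9 CPM at SCI day 3. The groups overlapped in none of these genes, and replicate 2 was the lowest SCI day 3 library in each. They rose by 2.20, 2.24 and 2.15 in log2 units (edgeR adjusted p = 0.0324, 0.0337 and 0.0332). With a deciding library left out, 0 or 1 member stayed called, and without another library 3 (sham replicate 2) to 14 (SCI day 3 replicate 2).

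The JAK-STAT and gp130 genes, which carry signals of the interleukin-6 family, rose in 7 of 25 members (median 0.84), against 5.50% of all genes. Osmr, the oncostatin M receptor, measured 4.84, 6.44 and 5.98 CPM in sham and 79.8, 32.4 and 117 CPM at SCI day 3. Stat3, the main transcription factor of the pathway, measured 115, 95.2 and 103 CPM in sham and 384, 224 and 465 CPM at SCI day 3. Both were higher in every SCI day 3 library than in any sham library, and they rose by 3.73 and 1.78 (edgeR adjusted p = 0.0332 for both). The kinase Pim1, a STAT target, rose by 2.35 (edgeR adjusted p = 0.0369). With Socs3 and Il11, described above, receptor, transducer and feedback inhibitor are thus all among the called members. No member stayed called without a deciding library, and without any other library 2 (sham replicate 2) to 14 (SCI day 3 replicate 2) did.

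Of the NF-kB members and feedback genes 5 of 21 rose (median 1.06), against 5.50% of all genes. The inhibitor gene Nfkbia measured 15.6, 30.3 and 23.9 CPM in sham and 94.3, 48.5 and 119 CPM at SCI day 3, and the nuclear IkB protein gene Bcl3 2.35, 3.95 and 1.703 CPM in sham and 24.1, 18.6 and 45.9 CPM at SCI day 3. The apoptosis inhibitor Birc3 and the subunit Rel measured 1.07 ± 0.276 and 1.66 ± 0.328 CPM in sham and 9.53 ± 6.97 and 4.39 ± 1.58 CPM at SCI day 3 (SD, n = 3). These 4 genes did not overlap between groups and rose by 1.91, 3.47, 3.16 and 1.40 (edgeR adjusted p = 0.0369, 0.0369, 0.0386 and 0.0463). Of the Toll-like receptor and inflammasome genes 5 of 25 rose, with a median of 1.22. Cd14, the endotoxin co-receptor, measured 2.62, 3.24 and 2.91 CPM in sham and 86.8, 10.1 and 36.2 CPM at SCI day 3, and Myd88, the adaptor of most Toll-like receptors, 8.47, 9.54 and 8.19 CPM in sham and 40.999, 22.98 and 56.6 CPM at SCI day 3. The kinase Irak4 and the receptor Tlr1 rose by 1.47 and 2.20 (edgeR adjusted p = 0.0337 and 0.0378). Cd14 differed most among the SCI day 3 libraries, with replicate 1 more than 8 times replicate 2. Monocyte and border macrophage markers summed to 228 to 313 CPM in sham and 1413, 519 and 1113 CPM at SCI day 3, with 2 of 11 called higher. Microglia markers summed to 288 to 461 CPM in sham and 939, 319 and 297 CPM. Neutrophil markers, with 0 of 12 called by edgeR and 2 at an unadjusted p under 0.05, were above sham replicates 1 and 3 in all SCI day 3 libraries, as given above. The part of these cell types in the signalling genes was not tested. In fits short of a deciding library, no member of the NF-kB or Toll-like receptor lists stayed called, without SCI day 3 replicate 2 there were 15 and 14 higher, and without sham replicate 2 the counts were 0 (15 at an unadjusted p under 0.05) and 2. Without SCI day 7 replicate 1 or 3 the NF-kB list had 3 and 4 called members, and without SCI day 14 replicate 1 or 2 it had 2 and 3, while the Toll-like receptor list had 5 in each of these 4 fits.

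Most genes of the cytosolic ribosome rose. Of 58 members tested 46 rose (5.50% of all genes did), and all 58 had a positive fold change, with a median of 1.002 on the log2 scale. The groups did not overlap in 52 members, against 19.0% of all genes. By library the list stood at -0.23, 0.29 and 0.00 in sham and at 1.29, 0.58 and 1.23 at SCI day 3. Sham replicate 2 was thus the sham library nearest to SCI day 3, and SCI day 3 replicate 2 lay between it and the other SCI day 3 libraries. As a share of all counts, the deposited counts of these genes took 0.444% ± 0.0876 in sham and 0.958% ± 0.273 at SCI day 3 (SD, n = 3). The exact two-sided permutation test gave p = 0.1, the smallest that 3 against 3 allows.

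Rps2, a protein of the small subunit, measured 67.01, 93.4 and 72.1 CPM in sham and 518, 179 and 408 CPM at SCI day 3, and had the highest fold change of the list. It rose by 2.25 ± 0.38 in log2 units (SE, n = 3 per group; edgeR adjusted p = 0.0324). Rplp0, of the ribosomal stalk, measured 302, 403 and 303 CPM in sham and 1147, 580.2 and 899.8 CPM at SCI day 3, and Rpsa, of the small subunit and also described as a laminin receptor, 305, 411 and 323 CPM in sham and 1149.9, 524 and 805 CPM at SCI day 3. These last 2 are among the 5 most abundant genes that rose, and in both every SCI day 3 library was above every sham library. Rplp0 rose by 1.38 and Rpsa by 1.25 (edgeR adjusted p = 0.03605 and 0.0369). Rpl17 and Rpl34, of the large subunit, rose by 1.04 and 1.26 (edgeR adjusted p = 0.0324 for both), and Rpl21 by 0.90 (edgeR adjusted p = 0.0332). The 12 members that did not pass had fold changes of 0.40 (Rpl22) to 1.60 (Rps12), and these extremes were picked after their values were seen. Ribosomal protein genes have many near-identical pseudogenes, and since the treatment of shared reads is unknown, the level of each member is uncertain. When a deciding library was dropped, none of the 46 was called, and without any other library 23 (sham replicate 2, and SCI day 7 replicate 3) to 53 (SCI day 3 replicate 2).

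**Figure D3:**
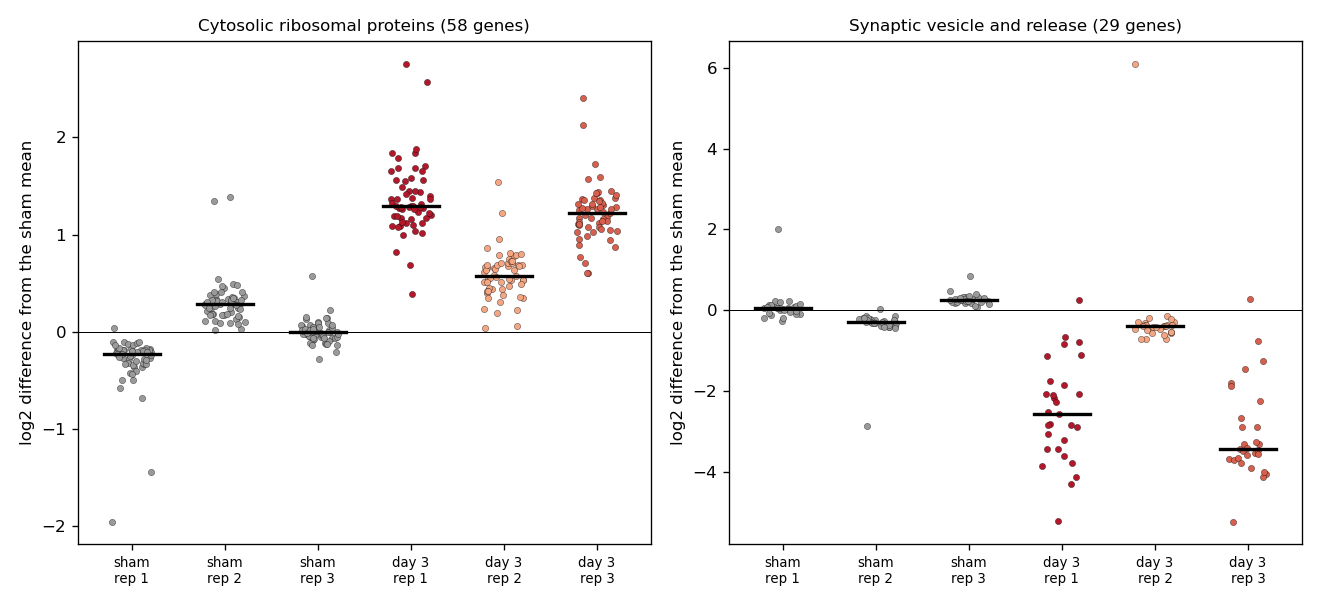
Log2 difference from the sham mean (vertical axis) of each tested member in each library, for 58 genes of the cytosolic ribosome (left) and 29 of synaptic vesicles (right); points are genes and bars their median. The ribosome medians at SCI day 3 are 1.29, 0.58 and 1.23, while the synaptic medians are -2.58, -0.40 and -3.44, with replicate 2 near sham.

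Genes that build the ribosome rose with its proteins. Of 31 ribosome biogenesis genes 15 rose (5.50% of all genes did), all 31 had a positive fold change, and the median was 0.86. The list stood within 0.02 of the mean in the 3 sham libraries and at 1.02, 0.28 and 1.14 at SCI day 3. Ncl, nucleolin, measured 322, 308 and 309.5 CPM in sham and 761, 391 and 704 CPM at SCI day 3, and Npm1, nucleophosmin, 123, 120.3 and 117 CPM in sham and 384, 173 and 342 CPM at SCI day 3. Their sham libraries were nearly equal and SCI day 3 replicate 2 lay less than 1.5-fold above them. Npm1 rose by 1.32 and Ncl by 0.98 (edgeR adjusted p = 0.0369 and 0.0428). Ddx21, a nucleolar helicase, Heatr1, a factor of the small subunit, and Nop58, a core snoRNP protein, rose by 1.78, 1.67 and 1.53 (edgeR adjusted p = 0.0358 each). Without a deciding library none of the 15 stayed called, and without any other library 1 (sham replicate 2) to 27 (SCI day 3 replicate 2).

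Other steps of making RNA and protein had smaller median changes. Genes of splicing and RNA binding rose in 11 of 29 (5.50% of all genes did), with a median of 0.65 and levels of 0.92, 0.30 and 0.72. Zfp36, which binds AU-rich mRNA and speeds its decay, measured 11.5, 31.3 and 17.98 CPM in sham and 103, 92.5 and 195 CPM at SCI day 3, with replicate 2 close to replicate 1. Ptbp1, a splicing repressor replaced by a paralog in neurons, measured 66.3, 96.5 and 58.4 CPM in sham and 348, 129 and 291 CPM at SCI day 3. The groups did not overlap in either, and Zfp36, Ptbp1, Hnrnpab and Hnrnpf rose by 2.68, 1.79, 1.64 and 1.42 (edgeR adjusted p = 0.0324 for Hnrnpab and 0.0358 for the others). Of 29 genes of tRNA charging and amino acid supply 3 rose (median 0.31). They were the amino acid transporter subunits Slc3a2 and Slc1a5 and the arginyl-tRNA synthetase Rars1, which rose by 1.20, 2.11 and 0.91 (edgeR adjusted p = 0.0341, 0.0439 and 0.04305). Of 31 proteasome subunits 0 passed in edgeR, with 10 at an unadjusted p under 0.05, while DESeq2 called 6 higher and 2 lower and limma voom 6 and 1. Their median fold change was 0.15, and Psmb2, the member with the smallest p, measured 36.4, 37.7 and 39.2 CPM in sham and 67.9, 45.3 and 50.8 CPM at SCI day 3. With a deciding library left out, no splicing or tRNA gene stayed called, and without SCI day 3 replicate 2 there were 22 and 12 higher.

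Genes of actin remodelling and motility rose in 21 of 40 members. All 40 had a positive fold change, the median was 1.15, and the groups did not overlap in 34. Of all genes 5.50% rose and 19.0% did not overlap in this direction. The list stood at -0.11, 0.27 and -0.14 in sham and at 1.72, 0.67 and 1.15 at SCI day 3. Myh9, the heavy chain of non-muscle myosin and one of the 5 most abundant risers, measured 181, 295 and 175 CPM in sham and 960.3, 402 and 967 CPM at SCI day 3, and Msn, moesin, which ties actin to the membrane, 114, 194 and 105 CPM in sham and 1229, 290.1 and 821 CPM at SCI day 3. Tagln2, an actin-bundling protein, measured 31.2, 49.9 and 28.96 CPM in sham and 329, 144 and 304 CPM at SCI day 3. In each of these the highest sham library was replicate 2 and the lowest SCI day 3 library was replicate 2, with no overlap. They rose by 1.84, 2.50 and 2.82 (edgeR adjusted p = 0.0369, 0.0338 and 0.0324), as did the crosslinkers Cnn2 and Actn1 by 2.62 and 1.57 (edgeR adjusted p = 0.0338 for both). In fits short of a deciding library, 0 stayed called, and without any other library 10 (SCI day 14 replicate 1) to 37 (SCI day 3 replicate 2).

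Adhesion genes gave fewer calls, to be set beside the 5.50% of all genes that rose. Integrin and focal adhesion genes rose in 3 of 25 (median 1.18): Itga5, the fibronectin receptor chain, Itgax, a chain of myeloid cells, and Itgb1, the common beta chain. Itga5 measured 4.78, 11.5 and 4.02 CPM in sham and 155, 29.1 and 95.8 CPM at SCI day 3, and Itgb1 229, 264 and 185 CPM in sham and 701, 319.8 and 719 CPM at SCI day 3. They rose by 3.79, 3.87 and 1.36 (edgeR adjusted p = 0.0358, 0.04003 and 0.0421). Annexins and S100 proteins rose in 4 of 19 (median 1.08). S100a11, a calcium-binding protein, measured 2.51, 7.4997 and 1.9997 CPM in sham and 71.9, 17.3 and 44.2 CPM at SCI day 3, and S100a10, the partner of annexin A2, 21.2, 68.5 and 25.7 CPM in sham and 163, 107 and 189 CPM at SCI day 3. In both, sham replicate 2 was about 3 times the other sham libraries, and the list as a whole stood at 0.95 in that library and at -0.41 and -0.38 in the others. S100a11, S100a10, Anxa7 and Anxa11 rose by 3.47, 1.99, 1.32 and 0.84 (edgeR adjusted p = 0.0358, 0.0398, 0.0337 and 0.0487). Galectins, selectins and cell adhesion molecules rose in 4 of 21. Lgals3, galectin-3, measured 7.66, 12.8 and 7.75 CPM in sham and 279, 70.05 and 126 CPM at SCI day 3, and Cd44, the hyaluronan receptor, 27.8, 23.99 and 23.997 CPM in sham and 264, 84.8 and 181 CPM at SCI day 3. Both were higher in each SCI day 3 library than in any sham library. The adhesion receptors Icam1 and Icam2 rose by 2.62 and 1.34 (edgeR adjusted p = 0.0409 and 0.0324). Endothelial markers summed to 421 to 578 CPM in sham and 1775, 789 and 1293 CPM at SCI day 3, with 6 of 11 called higher, and pericyte and smooth muscle markers to 282 to 371 CPM and 902, 499 and 598 CPM, with 5 of 11. The part of vessel cells in the actin and adhesion genes was not tested. When a deciding library was dropped, no integrin, annexin or galectin gene stayed called, and without SCI day 3 replicate 2 there were 13, 7 and 10 higher.

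Intermediate filament genes rose in 3 of 15, against 5.50% of all genes. Des, desmin of muscle and pericytes, measured 4.63, 7.42 and 4.41 CPM in sham and 39.6, 28.3 and 27.2 CPM at SCI day 3, and rose by 2.53 ± 0.32 in log2 units (SE, n = 3 per group; edgeR adjusted p = 0.0171). Its SCI day 3 libraries were close to each other, all more than 3 times the highest sham library. Lmna, the nuclear lamin, and Krt8, a keratin of simple epithelia, rose by 1.68 and 1.90 (edgeR adjusted p = 0.0386 and 0.0474). Vim, vimentin, measured 256, 1102 and 251 CPM in sham and 2956, 1414 and 4126 CPM at SCI day 3. Sham replicate 2 was over 4 times the other sham libraries and close to SCI day 3 replicate 2, and the gene did not pass (log2 fold change 2.40, edgeR adjusted p = 0.0516). Gfap, the astrocyte filament, measured 2328, 1004 and 2346 CPM in sham and 4720.2, 3143 and 1305 CPM at SCI day 3. The groups overlapped, since SCI day 3 replicate 3 was below 2 sham libraries (log2 fold change 0.69, edgeR adjusted p = 0.398). Without sham replicate 1 or 3 or SCI day 3 replicate 1 none of the 3 filament genes stayed called, without the other deciding libraries 1 did, and without SCI day 3 replicate 2 there were 7 higher and 5 lower.

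Genes of apoptosis and growth arrest rose in 14 of 26 members, against 5.50% of all genes. All 26 fold changes were positive, with a median of 1.28 and levels of 1.64, 0.73 and 1.51. The anti-apoptotic Mcl1 measured 61.99, 71.7 and 52.7 CPM in sham and 256, 142 and 361 CPM at SCI day 3, and the groups did not overlap. Tnfrsf12a, the receptor of the cytokine TWEAK, and Gadd45b, a stress sensor, rose by 3.51 and 2.49, and Mcl1 by 2.03 (edgeR adjusted p = 0.0324, 0.0338 and 0.0324). The list thus holds genes that promote and genes that restrain cell death among its called members. Antioxidant genes rose in 2 of 23 and fell in 1, against 5.50% and 1.20% of all genes. Hmox1, which degrades heme, measured 7.26, 12.5 and 8.94 CPM in sham and 204, 44.2 and 224 CPM at SCI day 3, and Txnrd1, thioredoxin reductase, 85.5, 83.1 and 89.7 CPM in sham and 192, 128 and 222 CPM at SCI day 3. Prdx6, a peroxiredoxin of astrocytes, measured 167, 167 and 181 CPM in sham and 95.6, 129 and 102 CPM at SCI day 3. No groups overlapped in these genes, and they changed by 4.04, 1.07 and -0.65 (edgeR adjusted p = 0.0338, 0.0337 and 0.0425). Without a deciding library no gene of these lists stayed called, and without any other library 7 (sham replicate 2) to 23 (SCI day 3 replicate 2) of the apoptosis genes were higher.

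Metalloproteinases, serpins and the plasminogen system rose in 8 of 26 (median 2.07), with levels of -0.12, 0.59 and -0.35 in sham and 2.97, 1.05 and 2.39 at SCI day 3. Mmp3, stromelysin, measured 0.308, 0.461 and 0.266 CPM in sham and 3.88, 7.404 and 7.78 CPM at SCI day 3, and here replicate 2 was close to the highest library. Timp1, an inhibitor of metalloproteinases, measured 5.57, 22.02 and 6.41 CPM in sham and 227, 84.8 and 428 CPM at SCI day 3, and Adamts1, a protease of proteoglycans, 21.4, 24.9 and 16.4 CPM in sham and 283, 115 and 508 CPM at SCI day 3. Plau, the urokinase activator of plasminogen, measured 1.41, 3.84 and 1.73 CPM in sham and 84.4, 11.7 and 96.2 CPM at SCI day 3. Mmp3, Timp1, Adamts1 and Plau rose by 4.20, 4.44, 3.85 and 4.78 (edgeR adjusted p = 0.0358, 0.0324, 0.0324 and 0.0369). Meningeal and perivascular fibroblast markers summed to 2480 to 4825 CPM in sham and 4757, 4593 and 8654 CPM at SCI day 3, and their part was not tested. Growth factors of repair rose in 3 of 29, against 5.50% of all genes. Fgf2, Pdgfb and Tgfb1 rose by 2.45, 1.85 and 2.13 (edgeR adjusted p = 0.0324, 0.0338 and 0.0423). Fgf2, a basic fibroblast growth factor made by astrocytes, measured 2.203, 1.87 and 2.34 CPM in sham and 11.1, 7.301 and 16.8 CPM at SCI day 3. With a deciding library left out, no gene of either list stayed called, and without SCI day 3 replicate 2 there were 14 higher in each.

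Developmental and guidance pathways gave calls in both directions, and their number depended on the method. Of all genes 5.50% rose and 1.20% fell. Notch, Wnt and Hedgehog genes gave 6 higher and 1 lower of 31 in edgeR (median 0.08), with 18 at an unadjusted p under 0.05. DESeq2 called 10 higher and 6 lower, and limma voom 11 and 6. Hes1, the transcriptional target of Notch, measured 3.42, 4.84 and 4.03 CPM in sham and 11.9, 11.8 and 25.1 CPM at SCI day 3, and Jag1, a ligand of Notch, 14.98, 15.5 and 10.5 CPM in sham and 28.02, 24.8 and 41.8 CPM at SCI day 3. Notch3, the receptor of mural cells, and Jag1 rose by 0.78 and 1.20, and Hes1 by 1.99 (edgeR adjusted p = 0.0391, 0.0393 and 0.0332). Hhip, which binds and restrains Hedgehog ligands, measured 33.4, 11.6 and 23.5 CPM in sham and 6.42, 8.74 and 4.09 CPM at SCI day 3, and fell by 1.83 (edgeR adjusted p = 0.0436). Of 38 axon guidance genes 1 rose and 1 fell in edgeR, with 23 at an unadjusted p under 0.05. DESeq2 called 8 higher and 8 lower, and limma voom 11 and 9. Ephb4, a receptor of vessels, measured 11.9, 18.6 and 12.7 CPM in sham and 48.8, 23.6 and 46.2 CPM at SCI day 3. Sema4d, a semaphorin of oligodendrocytes, measured 816, 129.97 and 329.7 CPM in sham and 99.6, 79.9 and 35.7 CPM at SCI day 3. Its sham libraries spread over 6-fold and lay above all SCI day 3 libraries. Ephb4 rose by 1.46 and Sema4d fell by 2.57 (edgeR adjusted p = 0.0338 and 0.0406). In fits short of a deciding library, none stayed called, and without SCI day 3 replicate 2 there were 11 higher and 6 lower in the first list and 11 and 10 in the second.

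Among the genes that fell, those with the widest gap between groups included several metabolic enzymes. Syce1l, a relative of synaptonemal complex proteins, measured 12.04, 7.68 and 10.2 CPM in sham and 0.597, 0.181 and 0.154 CPM at SCI day 3. Gpt, alanine aminotransferase, measured 7.81, 4.69 and 6.48 CPM in sham and 0.329, 0.803 and 0.448 CPM at SCI day 3. Dao, the peroxisomal oxidase of D-amino acids found in astrocytes, measured 34.2, 14.95 and 32.7 CPM in sham and 1.402, 3.79 and 0.5598 CPM at SCI day 3. In all of these every SCI day 3 library was far below the sham libraries, in Syce1l with replicate 2 among the lowest. They fell, the log2 fold changes being -4.99, -3.58 and -3.83 (edgeR adjusted p = 0.0324, 0.0344 and 0.0324).

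Cbs, the enzyme that condenses homocysteine with serine, measured 36.4, 26.9 and 26.9 CPM in sham and 5.704, 6.78 and 5.56 CPM at SCI day 3. Aldh1l1, a folate enzyme used as an astrocyte marker, measured 56.9, 43.1 and 56.9 CPM in sham and 15.8, 15.96 and 11.5 CPM at SCI day 3. In both, the 3 SCI day 3 libraries were nearly level, and replicate 2 was within 1.5-fold of the others. Cbs and Aldh1l1 fell, the log2 fold changes being -2.32 and -1.86 (edgeR adjusted p = 0.0324 and 0.00534). Slc25a18, a mitochondrial glutamate carrier, measured 52.4, 61.3 and 70.3 CPM in sham and 3.97, 18.7 and 5.85 CPM at SCI day 3, and Btbd17, a secreted protein little described, 15.8, 15.7 and 15.7 CPM in sham and 0.195, 3.55 and 0.546 CPM at SCI day 3. In these last 2 replicate 2 lay between sham and the other SCI day 3 libraries, and they fell, the log2 fold changes being -2.69 and -3.46 (edgeR adjusted p = 0.0392 and 0.0482). Col11a2, a fibrillar collagen chain, measured 199, 216 and 250.03 CPM in sham and 23.1, 77.9 and 35.7 CPM at SCI day 3, and Ca12, a membrane carbonic anhydrase, 17.2, 12.8 and 19.3 CPM in sham and 1.804, 4.79 and 2.74 CPM at SCI day 3. The zinc finger gene Zfp92, the acyl-CoA synthetase Acsm5 and the phosphorylase kinase subunit Phkg1 fell, the log2 fold changes being -2.41, -2.49 and -2.21 (edgeR adjusted p = 0.0324, 0.0324 and 0.0369), and Col11a2 and Ca12 had -2.28 and -2.40 (edgeR adjusted p = 0.0332 and 0.0369). Without sham replicate 3 none of the 12 genes that fell was called, and without sham replicate 1, SCI day 3 replicate 1 or SCI day 3 replicate 3 Aldh1l1 was the 1 gene of the 12 called.

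Of the 14 astrocyte markers 4 fell (1.20% of all genes did), Aldh1l1, Aqp4 and the gap junction genes Gjb6 and Gja1, and the median was -1.25. The list stood at 0.17, -0.35 and 0.22 in sham and at -1.47, -0.55 and -1.77 at SCI day 3. Summed, the markers gave 7792 to 11025 CPM in sham and 7623, 8582 and 4394 CPM at SCI day 3, with none at 0. The groups thus overlapped in the sum. Gfap alone gave 2328, 1004 and 2346 CPM of it in sham and 4720, 3143 and 1305 CPM at SCI day 3. By gene, 12 of the 14 fold changes were negative. In 8 markers all SCI day 3 libraries lay below all sham libraries, which held for 18.3% of all genes. The part of astrocyte number in the lower genes that astrocytes express was not tested. Without a deciding library 0 or 1 marker stayed called, without sham replicate 2 or SCI day 14 replicate 1 also 1, without SCI day 14 replicate 2 there were 2, and without SCI day 3 replicate 2 there were 11.

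Metabolic pathways as lists gave few calls, to be set beside the 5.50% of all genes that rose and 1.20% that fell. Of 32 genes of fatty acid and amino acid breakdown 3 fell (median -0.13): Glud1, glutamate dehydrogenase, Mccc2 of leucine breakdown, and Bckdhb of branched-chain keto acid breakdown. Glud1 measured 576, 475 and 632 CPM in sham and 298, 355 and 220.1 CPM at SCI day 3, with no overlap between groups. They fell, the log2 fold changes being -0.95, -0.78 and -0.69 (edgeR adjusted p = 0.0386, 0.0384 and 0.0393). Glycolysis and lactate genes gave 3 higher of 25 with a median of 0.00. Ldha, lactate dehydrogenase A, measured 70.2, 124 and 87.7 CPM in sham and 398, 211 and 699.7 CPM at SCI day 3, and Slc2a1, the glucose transporter of the vessel wall, 147, 159.6 and 194 CPM in sham and 469.7, 259.6 and 360.2 CPM at SCI day 3. Ldha, Slc2a1 and the lactate exporter Slc16a3 rose by 2.21, 1.12 and 2.70 (edgeR adjusted p = 0.0332, 0.0392 and 0.0477). At an unadjusted p under 0.05 there were 13 of the 25, and DESeq2 and limma voom each called 7 higher and 6 lower, and edgeR called 6 higher without TMM scaling or with a filter of 1 CPM in every library of a group. Pfkfb3, which makes an activator of phosphofructokinase, measured 49.001, 39.3 and 53.8 CPM in sham and 95.9, 99.1 and 101 CPM at SCI day 3, with level SCI day 3 libraries and no overlap between groups, and missed the limit (log2 fold change 1.06, edgeR adjusted p = 0.0509). When a deciding library was dropped, none of the 6 stayed called, and without SCI day 3 replicate 2 there were 8 lower in the first list and 7 higher and 6 lower in the second. In the second list 1 stayed without sham replicate 2, SCI day 7 replicate 1 or SCI day 14 replicate 1 or 2.

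No gene of mitochondrial respiration or of cholesterol synthesis passed in edgeR. Among 40 nuclear genes of oxidative phosphorylation 20 had an unadjusted p under 0.05. DESeq2 called 1 higher and 16 lower, and limma voom 25 lower. Their median was -0.39, 37 of 40 fold changes were negative, and the list stood at -0.51, -0.08 and -0.69 at SCI day 3. Ndufs1, a subunit of complex I, measured 215, 185 and 217 CPM in sham and 113, 164 and 89.4 CPM at SCI day 3 (log2 fold change -0.75, edgeR adjusted p = 0.0656). The 13 mitochondrially encoded proteins, with 0 at an unadjusted p under 0.05, stood at -0.80, 0.09 and -0.74, and limma voom called 8 lower and DESeq2 0. Of 22 cholesterol genes 4 had an unadjusted p under 0.05, and DESeq2 and limma voom called 2 lower each. Mvk, mevalonate kinase, measured 63.7, 63.01 and 68.96 CPM in sham and 25.5, 46.9 and 28.4 CPM at SCI day 3 (log2 fold change -0.96, edgeR adjusted p = 0.0534). In these pathways SCI day 3 replicate 2 lay nearer to sham than replicates 1 and 3, as for the neuronal markers.

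Mature oligodendrocyte genes fell in 4 of 17 members, against 1.20% of all genes lower. The median was -0.72, and the list stood at 0.48, -0.63 and 0.07 in sham and at -0.94, -0.85 and -1.32 at SCI day 3. Here SCI day 3 replicate 2 was as low as replicate 1. Cnp, an enzyme of myelin, measured 2190.5, 1199 and 1633 CPM in sham and 836, 725 and 652 CPM at SCI day 3, and Opalin, a membrane protein of mature oligodendrocytes, 261, 138 and 219 CPM in sham and 71.3, 89.7 and 34.1 CPM at SCI day 3. Ermn, a cytoskeletal protein of the outer myelin, measured 816, 296 and 592 CPM in sham and 172, 219.9 and 84.6 CPM at SCI day 3. The groups overlapped in none of these, and the lowest sham library was replicate 2, the sham library with the most Schwann cell and neutrophil transcripts. They fell together with Aspa, aspartoacylase, the log2 fold changes being -1.18, -1.67, -1.84 and -0.66 (edgeR adjusted p = 0.0458, 0.0398, 0.0445 and 0.0436). Mbp, myelin basic protein, measured 38480.000, 20557 and 26353 CPM in sham and 19201, 18379 and 30622 CPM at SCI day 3. The groups overlapped, with the highest SCI day 3 value in replicate 3, which also held the most Schwann cell transcripts, a cell type that expresses this gene too (log2 fold change -0.32, edgeR adjusted p = 0.493). The summed mature oligodendrocyte markers were 78609, 36548 and 52579 CPM in sham and 33492, 32054 and 44450 CPM at SCI day 3. Mbp, at the values above, was a large part of each sum. By gene, 16 of the 17 fold changes were negative. In 7 members all SCI day 3 libraries lay below all sham libraries, which held for 18.3% of all genes. The part of nerve root tissue in these values was not tested. Without a deciding library none of the 4 calls stayed, nor without SCI day 14 replicate 1 or 2, and without SCI day 3 replicate 2 there were 6.

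The most abundant genes that fell had different functions. Aqp4, the water channel of astrocyte endfeet, measured 1672, 1068 and 1701 CPM in sham and 362, 819.6 and 247 CPM at SCI day 3. Abca2, a lipid transporter of oligodendrocytes, measured 1518, 969.7 and 1216 CPM in sham and 569.8, 707 and 614 CPM at SCI day 3. Abca2 was nearly level across the SCI day 3 libraries, while Aqp4 was highest in replicate 2. Dennd5a, a regulator of Rab proteins, measured 1011, 624 and 844 CPM in sham and 472, 482 and 411 CPM at SCI day 3, and Aplp2, a relative of the amyloid precursor, 794, 657 and 820.4 CPM in sham and 385, 555 and 352 CPM at SCI day 3. No groups overlapped, and they fell, the log2 fold changes being -1.64, -0.97, -0.86 and -0.81 (edgeR adjusted p = 0.0437, 0.0338, 0.0444 and 0.0439). On the other side Ctsb, the lysosomal protease cathepsin B and the most abundant gene that rose, measured 416, 466 and 461 CPM in sham and 2036, 730.1 and 1045 CPM at SCI day 3, and rose by 1.505 (edgeR adjusted p = 0.0473). Without sham replicate 1 or 3, or SCI day 3 replicate 1 or 3, none of these 5 was called.

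Neuronal genes were low in 2 of the 3 SCI day 3 libraries and produced almost no call. Of 29 synaptic vesicle genes 0 passed in edgeR, with 20 at an unadjusted p under 0.05, and DESeq2 called 17 lower and limma voom 27. Their median fold change was -1.59, and the list stood at -2.58, -0.40 and -3.44 at SCI day 3 against 0.05, -0.28 and 0.26 in sham. In 23 of the 29 all SCI day 3 libraries lay below all sham libraries, which held for 18.3% of all genes. SCI day 3 replicate 2 was therefore low as well in most members, with a list level near that of sham replicate 2. Without SCI day 3 replicate 2 edgeR called 28 of the 29 lower. Ionotropic glutamate receptor and postsynaptic genes (27 tested) and sodium and calcium channels (29 tested) also had 0 calls in edgeR, with medians of -1.37 and -1.43. At an unadjusted p under 0.05 there were 16 and 17, and DESeq2 called 7 and 10 lower and limma voom 20 and 22. Slc12a5, which carries chloride out of mature neurons, had a log2 fold change of -1.82, and Chat, the choline acetyltransferase of motor neurons, of -1.92 (edgeR adjusted p = 0.171 and 0.1599). Slc12a5 measured 516, 457 and 609 CPM in sham and 32.0, 383 and 31.5 CPM at SCI day 3. Chat, whose entry is labelled a pseudogene, measured 39.98, 38.3 and 43.6 CPM in sham and 1.99, 28.8 and 1.37 CPM at SCI day 3. In both, replicate 2 was far above replicates 1 and 3. Unlike the summed markers given above, it lay below every sham library.

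**Figure D4:**
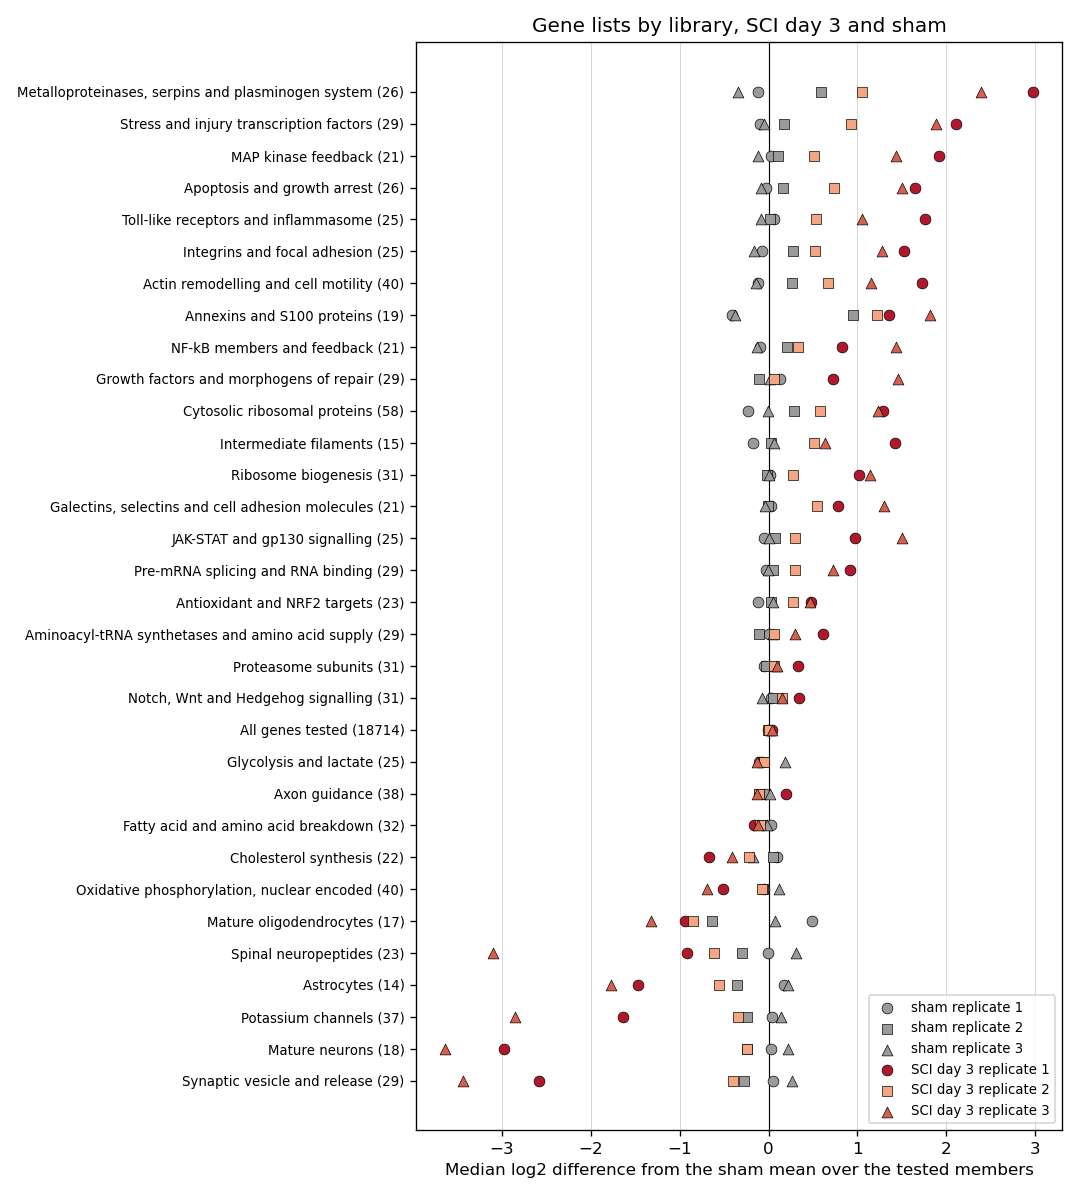
Median log2 difference from the sham mean over the tested members of each list (horizontal axis; number of members in brackets), with 1 symbol per library, grey for sham and coloured for SCI day 3. The all-gene medians lie near 0, the lists at the top are high in SCI day 3 replicates 1 and 3 and less so in replicate 2, and the neuronal lists at the bottom are low in replicates 1 and 3.

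Within these classes single genes passed, at counts to be set beside the 5.50% of all genes that rose and 1.20% that fell. Of 37 potassium channels 1 rose and 1 fell in edgeR, with a median of -1.32 and 20 at an unadjusted p under 0.05. DESeq2 called 3 higher and 11 lower, and limma voom 3 and 24. In 20 channels all SCI day 3 libraries lay below all sham libraries, which held for 18.3% of all genes. Kcnj8, a channel of pericytes and smooth muscle, measured 13.1, 8.56 and 5.98 CPM in sham and 19.6, 17.6 and 32.3 CPM at SCI day 3, and rose by 1.33 (edgeR adjusted p = 0.0463). Kcnh1, a voltage-gated channel of neurons, measured 12.3, 12.3 and 13.6 CPM in sham and 4.63, 8.61 and 4.21 CPM at SCI day 3, and fell by 1.13 (edgeR adjusted p = 0.0459). Among 23 neuropeptide genes 1 fell in edgeR, with 2 at an unadjusted p under 0.05, while limma voom called 8 lower and DESeq2 1, and 12 lay below sham in every SCI day 3 library. It was Cartpt, which encodes a satiety and pain peptide precursor. Cartpt measured 2.83, 1.24 and 2.55 CPM in sham and 0.475, 0.583 and 0.238 CPM at SCI day 3, and fell by 2.35 (edgeR adjusted p = 0.0482). In all 3 genes the groups did not overlap and replicate 2 was on the same side of sham as the other SCI day 3 libraries. The peptide precursor Cck measured 25.4, 26.4 and 20.997 CPM in sham and 2.47, 19.8 and 5.92 CPM at SCI day 3. The precursor Chga measured 237, 201 and 288 CPM in sham and 15.7, 179.7 and 14.1 CPM at SCI day 3. In both the groups did not overlap either, but replicate 2 lay near the lowest sham library. Neither passed (edgeR adjusted p = 0.124 and 0.147). None of the 3 calls stayed without a deciding library, nor without sham replicate 2, SCI day 7 replicate 1 or SCI day 14 replicate 1, and without SCI day 3 replicate 2 there were 25 channels and 7 neuropeptide genes lower and 3 channels higher.

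Hox genes, which mark position along the cord, gave 0 of 22 calls in edgeR, with 9 at an unadjusted p under 0.05 and 8 lower in each of DESeq2 and limma voom. All 22 had a negative fold change (median -0.77), and the list stood at -0.76, -0.32 and -1.09 at SCI day 3. Ependymal and cilia genes gave 0 of 23 calls in edgeR, 1 at an unadjusted p under 0.05 and 0 in DESeq2 and limma voom. They stood at -2.12, 0.71 and 0.50 at SCI day 3 and -0.55, 0.72 and -0.08 in sham, so replicate 1 alone was low.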

How the data were processed

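The study sequenced 12 samples of rat lumbar cord, 3 per group, of which the 6 of sham and SCI day 3 are described. Per the labels' protocols, libraries came from column-purified total RNA and a SMARTer mRNA-Seq kit. Per the file headers, the table holds whole read counts per gene as the authors deposited them, without scaling. It also holds deposited FPKM values, scaled by the authors for length and depth, which were not used. Not given in the sources used here were the aligner, the counting tool and the strand setting, which leaves values of overlapping, antisense and near-identical genes uncertain. The submitters' processing notes list the mouse builds GRCm38 and mm10, whereas the table uses rat Ensembl identifiers, so no coordinates from the table are given.

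The counts were passed through filterByExpr of edgeR by group (4812 of 23526 genes removed), scaled with TMM factors and fitted in edgeR 4.0.16 under R 4.3.3 with 1 mean per group over all 12 libraries (8 residual degrees of freedom, common biological coefficient of variation 0.432). SCI day 3 was tested against sham with the quasi-likelihood test, Benjamini-Hochberg limit 0.05. The SE is the log2 fold change over the square root of F. Library differences use log2 CPM with a prior count of 2. No 2 libraries were copies (closest pair, chi-square per gene 54.5). Floors of 3 counts cover counting error only. The test was tested on simulated data in which all 3 SCI day 3 libraries had the same fold change. The libraries here were not alike, so that run says nothing of the calls above.

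The 52 gene lists held 1200 symbols, of which 50 had no match and 7 failed the filter. The lists and the comparison were chosen with earlier results of these data known, so lists are described by counts and medians, without a test. The 3 members of the JAK-STAT and metalloproteinase lists with no count in 1 of the groups leave those medians the same when set to their bound. Named genes are the 12 genes each way with the widest gap at 5 CPM or more in the higher group, the 5 most abundant each way, the 4 tested members of smallest p in each of 28 lists, and 9 genes named in every case, of which Foxj1 was not analysed here. Of the genes this rule picks, 3 are not reported here. Promoters were taken from RefSeq (GRCr8) as the 250 bases before each gene start. Alternatives were DESeq2 1.42.0, limma 3.58.1 voom with sample weights, other scalings and filters, a replicate block, a fit of the 6 libraries, and each library left out.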

Additional observations from a re-analysis of the deposited data

How the results depend on the processing

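The number of calls was not stable. All of the 1254 calls that could be fitted kept their sign in each of the 21 alternatives, 1216 of them under the filter of 1 CPM in every library of a group and 1245 in the fit of the 6 compared libraries. Genes picked as called in these libraries could hardly do otherwise, so this says nothing of stability. The ratio of their log2 fold change to that of the main fit had a median over genes of 1.16 without SCI day 3 replicate 2. With that replicate alone the median ratio was 0.573. DESeq2 called 5107 genes (2981 higher, 2126 lower) and limma voom with sample weights 6232 (3312 and 2920). With no filter on low counts edgeR called 733 (626 and 107). The fit of the 6 libraries alone called 1 (1 and 0), as did SCI day 3 replicate 2 alone against sham (1 and 0). With another scaling the counts stayed within 1.5 times, at 1066 with DESeq2 size factors and 1394 without TMM, and the share of higher calls, 82.1%, became 79.8% and 86.1%. With each library left out in turn, those of days 7 and 14 included, calls ranged from 1 to 7087, with 1 to 3659 higher and 0 to 3428 lower. With the replicate number as a block 8 genes were called (7 and 1). The deviations of libraries with the same number from their group means correlated at 0.138, -0.143 and -0.198 across genes. Those of libraries with different numbers correlated at -0.155 to 0.293. With 3 libraries per group these values cannot settle whether the numbers pair the samples. The causes were not tested. Depth limits few of the genes named, while 3 libraries per group, the spread among the SCI day 3 libraries and the Day0 sham limit all of them.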

Other observations

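Other groups were measured outside the pathways above, and the names in this paragraph and the next were picked after their values were seen. Vessel wall genes rose: 6 of 11 endothelial markers, among them the adhesion molecule Pecam1, the clotting factor carrier Vwf and the junction protein Esam, by 2.29, 1.85 and 1.63 in log2 units (edgeR adjusted p = 0.0358, 0.0338 and 0.0324). By library the endothelial markers had medians of 0.00, 0.21 and -0.22 in sham and 1.70, 0.52 and 1.49 at SCI day 3. Of 25 tubulin and microtubule genes, whose median was -1.01, 1 rose. It was Tubb6, a beta tubulin found outside neurons, which measured 14.5, 17.4 and 8.19 CPM in sham and 269, 48.7 and 151 CPM at SCI day 3 (log2 fold change 3.55, edgeR adjusted p = 0.0324). Of all genes 5.50% rose, and neither the tubulin nor the lysosomal count stands far from that share. Of 28 lysosomal genes 2 rose, Ctsb and the tetraspanin Cd63, the latter by 2.20 (edgeR adjusted p = 0.0369). None of these genes was called without sham replicate 3, where Tmem158 was the 1 gene called.

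A few genes of other functions had nearly level SCI day 3 libraries. Taf10, a subunit of the transcription factor TFIID, measured 7.35, 7.35 and 8.31 CPM in sham and 25.8, 19.1 and 22.8 CPM at SCI day 3, and was called in 17 of 21 alternative fits. Apold1, an early response gene of endothelium, measured 8.05, 19.5 and 19.8 CPM in sham and 104, 74.2 and 101 CPM at SCI day 3. Hnrnpa0, an RNA-binding protein, measured 34.5, 46.0 and 38.2 CPM in sham and 115, 84.5 and 121 CPM at SCI day 3. Both were called in 15 of the 21 fits, and Apold1, Hnrnpa0 and Taf10 rose by 2.56, 1.43 and 1.56 in log2 units (edgeR adjusted p = 0.0171, 0.0117 and 0.00534).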
